A study of Mus musculus with 6 samples.

Results

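The genes of the cytotoxic granule were examined in mouse Th17 cells with and without Stim1. They are 10 genes chosen by symbol (Gzma, Gzmb, Gzmc, Gzmk, Prf1, Nkg7, Srgn, Ctsw, Serpinb9 and Unc13d) among 23393 named genes of the deposited table, and all 10 were found in it. The cells were naive CD4 T cells of C57BL/6 mice, which the labels call pathogenic Th17 cells after a 2-day culture on antibodies to CD3 and CD28 plus the cytokines IL-6, IL-23 and IL-1b. In the 3 libraries of the genotype Stat3CSTOPfl/fl CD4-Cre (called Stat3C below), Cre expressed under Cd4 control removes a stop sequence and so switches on Stat3C, a hyperactive form of the transcription factor STAT3. The 3 libraries of Stim1fl/fl Stat3CSTOPfl/fl CD4-Cre (called Stim1KO Stat3C) carry the same Stat3C allele, and Cre also deletes floxed Stim1, which encodes the calcium sensor of the endoplasmic reticulum. Both groups therefore express Stat3C, and no group with unaltered STAT3 is analysed here. Because the Cd4 promoter is already active in thymocytes, cells of the CD8 lineage can lose Stim1 too. The labels do not state age or sex, nor whether each replicate is a separate mouse. The p-values therefore measure only how far these libraries spread, and part of that may be technical.

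Cytotoxic lymphocytes kill by releasing granules in which granzymes, a family of serine proteases, are packed on the proteoglycan serglycin. Perforin forms pores in the target membrane and lets the granzymes into the cell, where they cleave proteins that trigger death. The machinery is best known from CD8 T cells and natural killer (NK) cells, but activated CD4 T cells can also express parts of it. In killer cells, release of the granules needs calcium entry through the channels that STIM1 opens.

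Values are normalised read counts, that is, read counts divided by the authors' size factor for each library. Recovered reads numbered 16009755 to 51347367 per library, and a value of 0 allows up to 3 reads, or 1.30 to 4.11 normalised counts depending on the library (counting error only). A log2 fold change is the mean log2(value + 1) of Stim1KO Stat3C less that of Stat3C, tested with limma across 11947 genes, with a call at a Benjamini-Hochberg adjusted p under 0.05. Stim1 itself stood at 1999, 1969 and 1931 in Stat3C replicates 1 to 3 and at 811, 794 and 687 in Stim1KO Stat3C replicates 1 to 3 (log2 -1.37, SE 0.08, adjusted p = 0.000287). Replicate 2 of Stat3C stood apart through markers of other cell types, and replicate 3 of each group through Xist, the RNA of the inactive X chromosome. Results are therefore also given without single libraries.

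The granzyme genes lie in clusters. Gzmb and Gzmc are neighbours on chromosome 14 with a gap of 24.2 kb between them, and Gzma and Gzmk lie 70.6 kb apart on chromosome 13. The bases just before the RefSeq start sites (GRCm38.p6) of these 4 genes and of Prf1 are shown because neighbours in each cluster differed in their values. Each line reads 5′ to 3′ on the strand of its gene and ends at the start site or, for Prf1, 3 bases earlier, where an annotated exon begins. Capitals mark matches, on either strand, to the AP-1 motif TGANTCA, the cAMP response element TGACGTCA or its core TGACGT, the RUNX motif TGTGGT and the T-box motif GGTGTGA.
Gzmb, chr14:56262335-56262584, minus strand: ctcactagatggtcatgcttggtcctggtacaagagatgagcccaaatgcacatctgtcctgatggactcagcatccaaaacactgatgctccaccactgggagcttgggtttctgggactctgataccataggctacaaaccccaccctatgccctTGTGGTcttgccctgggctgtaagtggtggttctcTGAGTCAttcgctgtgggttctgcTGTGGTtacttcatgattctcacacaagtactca
Gzmc, chr14:56234658-56234907, minus strand: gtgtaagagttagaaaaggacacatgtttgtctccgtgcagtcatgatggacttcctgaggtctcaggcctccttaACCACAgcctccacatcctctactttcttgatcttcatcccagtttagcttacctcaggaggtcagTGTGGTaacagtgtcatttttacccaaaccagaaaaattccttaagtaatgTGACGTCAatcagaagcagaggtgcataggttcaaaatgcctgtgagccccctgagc
Prf1, chr10:61297586-61297832, plus strand: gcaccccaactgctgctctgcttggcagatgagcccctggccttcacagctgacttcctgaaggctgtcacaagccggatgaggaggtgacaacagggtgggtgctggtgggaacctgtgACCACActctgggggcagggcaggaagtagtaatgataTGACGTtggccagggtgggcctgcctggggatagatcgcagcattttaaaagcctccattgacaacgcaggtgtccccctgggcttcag
Gzma, chr13:113100982-113101231, minus strand: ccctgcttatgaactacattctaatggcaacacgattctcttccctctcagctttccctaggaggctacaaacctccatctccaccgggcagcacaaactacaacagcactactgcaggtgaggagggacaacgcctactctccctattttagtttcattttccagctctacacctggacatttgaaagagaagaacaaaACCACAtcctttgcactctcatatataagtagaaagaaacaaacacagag
Gzmk, chr13:113180966-113181215, minus strand: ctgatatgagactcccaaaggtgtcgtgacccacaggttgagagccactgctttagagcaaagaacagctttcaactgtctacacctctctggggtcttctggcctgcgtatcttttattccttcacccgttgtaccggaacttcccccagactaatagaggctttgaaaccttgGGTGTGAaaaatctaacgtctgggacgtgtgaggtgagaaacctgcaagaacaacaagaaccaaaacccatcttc

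In the Gzmb window, 1 AP-1 match lay at bases -58 to -52 from the start and RUNX matches at -93 to -88 and -34 to -29. The Gzmc window held the full cAMP response element at -57 to -50 and RUNX matches at -174 to -169 and -108 to -103. Prf1 had a RUNX match at -130 to -125 and the shorter core TGACGT at -92 to -87. Gzma had a RUNX match at -50 to -45, and Gzmk had a T-box match at -75 to -69. The Gzmk window lies inside the longer gene span of the GENCODE annotation (113171608 to 113225908), whose start is farther upstream. For Gzmb the GENCODE start lies 74 bases downstream of the RefSeq start, so its matches lie farther upstream of that start. RefSeq windows were found for 8 of the 10 genes (not Ctsw and Unc13d), 9 windows in all as Srgn has 2. RUNX letters were in 6 of these 9 windows (Gzma, Gzmb, Gzmc, Prf1, Nkg7 and 1 of the Srgn windows) and in 14.0% of all 32851 windows of 250 bases. AP-1 letters were in 1 of 9 against 6.75% of all windows, the full cAMP response element in 1 of 9 against 1.55%, its core (which the full element contains) in 3 of 9 against 6.47%, and the T-box motif in 2 of 9 against 3.33%. The NFAT core GGAAA was in 4 of 9 windows against 55.6%, and the STAT motif TTCNNNGAA in 1 of 9, that of Nkg7, against 7.02%. The Nkg7 STAT match overlaps 1 of these NFAT cores. These matches are letters only, and no binding was measured. Genes whose windows held RUNX letters included some that rose and some that did not.

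Of the 10 genes, all of which passed the filter of a mean of at least 10 normalised counts, 5 rose in Stim1KO Stat3C and none fell. Gzmk, Ctsw, Nkg7, Gzmb and Prf1 rose, and Gzma, Gzmc, Srgn, Serpinb9 and Unc13d did not pass the test. Among all genes tested, 8.62% rose and 4.96% fell. The median log2 fold change of the 10 genes was 0.82, against -0.00 over all genes tested. In 6 of the 10 genes there was no overlap between groups, against 35.6% of all genes tested, and 5 of these 6 were higher in Stim1KO Stat3C, against 19.2%. Gzmk passed the filter only through Stim1KO Stat3C, and so had to differ. These are bulk samples, so more cells expressing a gene and more RNA per cell cannot be told apart.

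**Figure D1:**
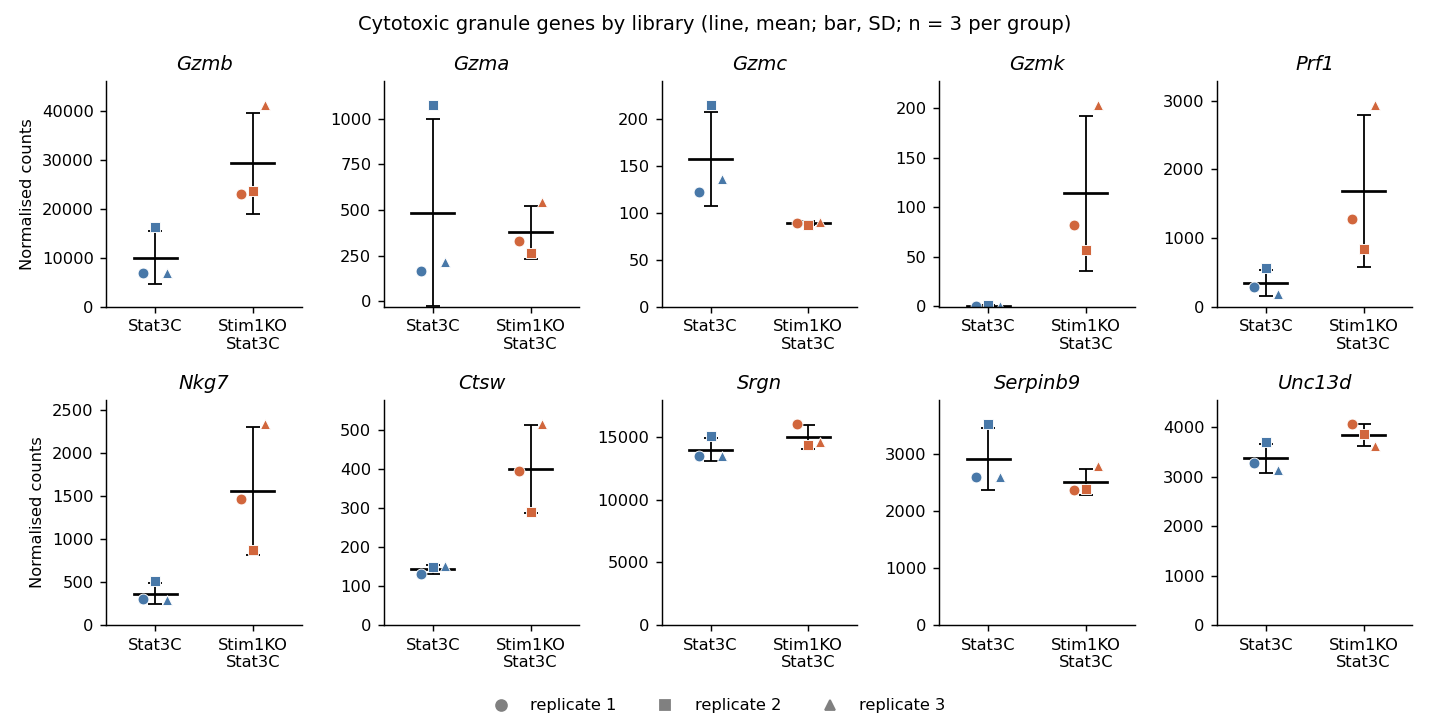
Normalised counts (vertical axes, linear, different for each gene) of the 10 granule genes in the 3 libraries of each group, with circle, square and triangle for replicates 1, 2 and 3, a line for the mean and a bar for the SD. Gzmb, Gzmk, Prf1, Nkg7 and Ctsw are higher in all 3 Stim1KO Stat3C libraries than in any Stat3C library, Gzmc is lower, and Srgn, Serpinb9, Unc13d and Gzma overlap.

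Granzyme B, encoded by Gzmb (ENSMUSG00000015437, chromosome 14, 56258838 to 56262260, minus strand, GRCm38), cleaves after aspartate and can activate caspases. Gzmb stood at 6801, 16186 and 6843 normalised counts in Stat3C replicates 1 to 3, and at 23100, 23611 and 41175 in Stim1KO Stat3C replicates 1 to 3. Replicate 2 was the highest library of the Stat3C group and replicate 3 the highest of the other, and the groups did not overlap. The mean rose 2.95-fold, from 9943 ± 5407 to 29295 ± 10292 (SD, n = 3 each), with a log2 fold change of 1.63 (SE 0.35, limma adjusted p = 0.0218). Gzmb took up 0.0306% to 0.0738% of all normalised counts in Stat3C libraries and 0.105% to 0.184% in Stim1KO Stat3C libraries. The call was lost when any of 5 single libraries was left out. Leaving out replicate 1 or replicate 3 of Stat3C gave limma adjusted p = 0.0755 and 0.0832, and leaving out replicate 1, 2 or 3 of Stim1KO Stat3C gave 0.0639, 0.0598 and 0.0671, with log2 fold changes of 1.36 to 1.78. Without Stat3C replicate 2 the log2 fold change was 2.05 (adjusted p = 0.000109).

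Granzyme K, a protease that cleaves after basic residues, is encoded by Gzmk (ENSMUSG00000042385, chromosome 13, 113171608 to 113225908, minus strand). Gzmk was listed at 0, 1.51 and 0 normalised counts in Stat3C and stood at 82.2, 56.9 and 203 in Stim1KO Stat3C. These values rest on 3 reads in all of Stat3C, every 1 of them in replicate 2, and on 317 reads in Stim1KO Stat3C, although the Stat3C libraries were together the deeper ones. Per unit of depth the ratio was 211, with an exact binomial 95% interval of 71.6 to 1029 that covers counting error only. The fitted log2 fold change was 6.19 (SE 0.67, limma adjusted p = 0.00165), a size that depends on the pseudocount. It ranged from 4.25 to 7.66 over 18 alternative settings and was called in all 18. Gzmk passed the filter only through Stim1KO Stat3C, so a higher level there was built into the settings that kept that filter.

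Granzyme A, also a protease that cleaves after basic residues, is encoded by Gzma (ENSMUSG00000023132, chromosome 13, 113093825 to 113100981, minus strand), the neighbour of Gzmk. Gzma stood at 168, 1077 and 215 in Stat3C and at 330.0, 265 and 541 in Stim1KO Stat3C. Stat3C replicate 2 was above all other libraries, 5.63 times the mean of replicates 1 and 3, while those 2 replicates were below every Stim1KO Stat3C library. The means, 486 ± 512 and 379 ± 144, and the log2 scale gave opposite directions, and Gzma was not called (log2 0.09, SE 0.63, adjusted p = 0.932). Without Stat3C replicate 2 the log2 fold change was 0.93 (limma adjusted p = 0.0248). As that library was the highest, leaving it out had to raise the log2 fold change. Leaving out replicate 1 or replicate 3 of Stat3C gave -0.41 and -0.23, and leaving out replicate 3 of Stim1KO Stat3C gave -0.20 (adjusted p = 0.725, 0.874 and 0.88). The sign thus also turned with single libraries.

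Granzyme C, a rodent granzyme, is encoded by Gzmc (ENSMUSG00000079186, chromosome 14, 56231441 to 56234656, minus strand). Gzmc stood at 122, 215 and 136 in Stat3C and at 89.0, 87.0 and 90.6 in Stim1KO Stat3C. All 3 Stim1KO Stat3C libraries were below all 3 Stat3C libraries, the opposite of its neighbour Gzmb. The difference just missed the threshold (log2 -0.77, SE 0.22, limma adjusted p = 0.0562), and it passed in 2 of 18 alternative settings. Of the 50-base stretches of the Gzmc transcripts, 4.14% also occur in transcripts of Gzmd, Gzme or Gzmg, so reads could be split between these genes. No such stretch was shared in Gzma, Gzmb or Gzmk.

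The other 6 granzyme genes of a list of the pathway were near or below the limit of the test. Gzmm, which encodes granzyme M, was the only 1 tested, at 12.7 ± 4.63 and 16.4 ± 8.04 (log2 0.29, adjusted p = 0.747). Gzmd, Gzme, Gzmf and Gzmg had means under 10, and Gzmn was listed at 0 in all 6 libraries. The sum of these 6 genes was 16.5 to 41.3 in Stat3C and 24.7 to 39.7 in Stim1KO Stat3C.

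Perforin is encoded by Prf1 (ENSMUSG00000037202, chromosome 10, 61297833 to 61304680, plus strand). Prf1 stood at 277, 555 and 187 in Stat3C and at 1280.4, 841 and 2933 in Stim1KO Stat3C. The groups did not overlap, and Stim1KO Stat3C replicate 3 was 2.77 times the mean of replicates 1 and 2. The mean rose 4.96-fold, from 340 ± 192 to 1685 ± 1103 (log2 2.25, SE 0.50, limma adjusted p = 0.0234). As for Gzmb, the call depended on single libraries. It was lost on leaving out replicate 1 or replicate 3 of Stat3C (adjusted p = 0.0764 and 0.0835) or of Stim1KO Stat3C (adjusted p = 0.0809 and 0.0551), with log2 fold changes of 1.76 to 2.35. Without Stat3C replicate 2 or Stim1KO Stat3C replicate 2 the call was kept (log2 2.68 and 2.66, adjusted p = 0.0012 and 0.0318).

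Nkg7 (ENSMUSG00000004612, chromosome 7, 43437073 to 43438249, plus strand) encodes a membrane protein of cytotoxic granules that takes part in their release. Nkg7 stood at 299.6, 512 and 285 in Stat3C and at 1461, 866 and 2337 in Stim1KO Stat3C. The lowest Stim1KO Stat3C library, replicate 2, was above the highest Stat3C library, also a replicate 2. The mean rose 4.25-fold, from 366 ± 127 to 1554 ± 740 (log2 2.02, SE 0.35, limma adjusted p = 0.0103). Only leaving out Stim1KO Stat3C replicate 1 among the single libraries ended the call (log2 2.01, adjusted p = 0.0533).

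Ctsw (ENSMUSG00000024910, chromosome 19, 5465043 to 5468507, minus strand) encodes cathepsin W, a cysteine protease found mainly in NK and CD8 T cells. Ctsw stood at 129.9, 149 and 152 in Stat3C and at 397, 289.9 and 517 in Stim1KO Stat3C. The Stat3C libraries lay close together, replicate 2 included, and all were below the Stim1KO Stat3C libraries. The mean rose 2.80-fold, from 144 ± 11.96 to 402 ± 114 (log2 1.44, SE 0.20, limma adjusted p = 0.00437), and the call was kept in all 18 alternative settings. Exons of Ctsw overlap those of Fibp on the opposite strand, and the strand setting of the counting was not stated in the labels. Fibp stood at 628 ± 9.68 and 572 ± 41.4 and was not called (log2 -0.14, SE 0.08, adjusted p = 0.288).

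Serglycin, the proteoglycan that holds granzymes in the granule, is encoded by Srgn (ENSMUSG00000020077, chromosome 10, 62493833 to 62527451, minus strand). Srgn was high in every library. Its values were 13531, 15063 and 13472 in the Stat3C libraries, and 16084, 14377 and 14603 were those of Stim1KO Stat3C. The groups overlapped, and the test gave no call for Srgn (log2 0.10, SE 0.07, adjusted p = 0.34). Its coefficient of variation within a group was 6.43% and 6.18%, against 54.4% and 35.1% for Gzmb.

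Serpinb9 (ENSMUSG00000045827, chromosome 13, 33003250 to 33017957, plus strand) encodes an inhibitor of granzyme B that protects cells from their own enzyme. Serpinb9 stood at 2603, 3536 and 2605 in Stat3C and at 2373, 2396 and 2784 in Stim1KO Stat3C. The groups overlapped, and Serpinb9 was not called (log2 -0.20, SE 0.13, adjusted p = 0.314). It was not called in any of 18 alternative settings, in contrast to the enzyme it inhibits.

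Unc13d (ENSMUSG00000057948, chromosome 11, 116062095 to 116077961, minus strand) encodes Munc13-4, which primes granules for fusion with the plasma membrane. Unc13d stood at 3273, 3707 and 3138 in Stat3C and at 4070.0, 3857 and 3623 in Stim1KO Stat3C. Only Stat3C replicate 2 and Stim1KO Stat3C replicate 3 overlapped, and Unc13d was not called (log2 0.19, SE 0.08, adjusted p = 0.129). Without Stat3C replicate 2 it passed (log2 0.26, limma adjusted p = 0.0161). That library was the highest of Stat3C, so leaving it out had to raise the log2 fold change.

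**Figure D2:**
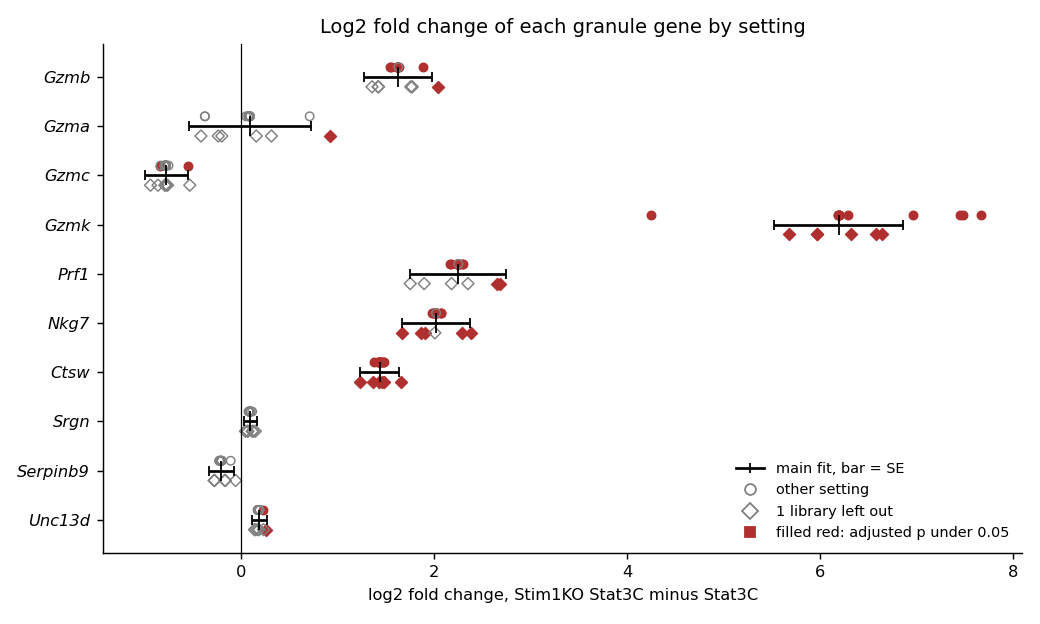
Log2 fold change (horizontal axis, Stim1KO Stat3C minus Stat3C) of each granule gene in the main fit (black, bar for the SE), under 12 other settings (circles) and with 1 library left out (diamonds), filled red where the adjusted p was under 0.05. Gzmk and Ctsw are red throughout, Gzmb and Prf1 lose the call for 5 and 4 of the 6 libraries left out, and Gzma lies on both sides of 0. Gzmk passed the filter only through Stim1KO Stat3C.

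Levels of different genes were compared per kb of annotated exon sequence. In Stat3C, Gzmb and Srgn led, at 6924 and 6385 normalised counts per kb, and their libraries overlapped. Serpinb9, Unc13d, Gzma and Nkg7 followed at 834, 721, 484 and 400.0 per kb, each overlapping the next. Gzmc, Prf1 and Ctsw stood at 176, 132 and 76.1 per kb, again each overlapping the next, and Gzmk was last at 0.363 per kb. In Stim1KO Stat3C, Gzmb stood alone at the top with 20401 per kb, without overlap with Srgn at 6840 per kb, and Nkg7 came next at 1701 per kb. Unc13d, Serpinb9, Prf1, Gzma and Ctsw followed at 823, 721, 652, 377 and 213 per kb, each overlapping the next. Gzmc and Gzmk were last at 99.4 and 82.1 per kb and overlapped. Of the summed per kb level of the 4 granzyme genes, Gzmb made up 89.6% to 94.0% in the Stat3C libraries and 97.1% to 97.6% in the Stim1KO Stat3C libraries.

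Single libraries moved several members together. Stat3C replicate 2 was the highest of its group for 9 of the 10 genes, all but Ctsw, and Stim1KO Stat3C replicate 3 was the highest of its group for 8, all but Srgn and Unc13d. Xist stood at 8362 and 11549 in replicate 3 of Stat3C and of Stim1KO Stat3C and at 1.37 to 3.53 in the other 4 libraries. Among the 4 libraries with little Xist the log2 difference was 1.15 for Gzmb, 1.40 for Prf1, 1.52 for Nkg7 and 1.28 for Ctsw. Between the 2 libraries with high Xist it was 2.59, 3.96, 3.03 and 1.76 for the same genes, with 1 library per group and so no test. Gzma differed by -0.52 in the former and by 1.33 in the latter. With the log2 level of Xist as a covariate, the same number of members, 5, passed the test.

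General T cell markers, listed here with Cd4, were high in every library. These, the Th17 cytokine genes and markers of other cell types moved in part with the groups. The 9 CD4 T cell markers summed to 64528 to 71053 normalised counts in Stat3C and 84339 to 92100.5 in Stim1KO Stat3C. All 9 had a positive log2 fold change. Of them, 7 were called, among them Lat, Cd3d, Cd5 and Cd3e, where 8.62% of all genes tested rose. Cd4 itself was not called (log2 0.30, limma adjusted p = 0.0529). Others of the list, such as the CD3 genes, are not particular to CD4 cells. Il17a and Il17f, the signature cytokine genes of Th17 cells, fell from 3308 ± 669 to 479 ± 94.2 and from 11160.5 ± 1647 to 3171 ± 334 (log2 -2.78 and -1.81, limma adjusted p = 0.000287 for each). Both CD8 markers fell, where 4.96% of all genes tested fell. Cd8a stood at 150.2, 87.6 and 184 in the Stat3C libraries, and with Stim1 deleted its values were 6.85, 5.37 and 17.9 (log2 -3.79, limma adjusted p = 0.00301), and Cd8b1 fell by 0.92 on the log2 scale (adjusted p = 0.0207). Of 16 NK cell markers 5 were tested and none was called, and their sum overlapped, at 116 to 306 and 140 to 339. Ncr1 and Klrb1c, receptor genes used to define NK cells, reached at most 8.22 and 2.60 normalised counts in any library. The 5 tested genes differed in direction, with Klrc1, Klrk1 and Klrd1 higher and Fcgr3 and Tyrobp lower in Stim1KO Stat3C by their means. Fcgr3 and Tyrobp passed the filter only through Stat3C, so they had to be lower in Stim1KO Stat3C. Klrc1, which encodes an NKG2 receptor chain, stood at 28.4 ± 21.3 and 82.6 ± 35.3 (adjusted p = 0.0929). Klrk1, which encodes the receptor NKG2D, stood at 40.6 ± 13.0 and 68.0 ± 39.0 (adjusted p = 0.461), and Klrd1 at 33.9 ± 5.46 and 62.0 ± 23.6 (adjusted p = 0.167). Fcgr3, an Fc receptor gene, stood at 35.1 ± 44.2 and 6.80 ± 1.81 with no overlap (adjusted p = 0.27), and Tyrobp at 17.4 ± 22.0 and 3.73 ± 4.005 (adjusted p = 0.339). Both were highest in Stat3C replicate 2, at 86.1 and 42.8. Cd4, Ncr1, Klrb1c, Klrd1, Fcgr3 and Tyrobp are named outside the rule, with their values in view. Markers of NKT and gamma delta T cells were found for 3 of 7 genes, summed to 57.1 to 75.5 and 10.7 to 29.9. Blk stood at 24.3 ± 8.67 and 0.332 ± 0.575, and it passed the filter only through Stat3C, so it had to differ.

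Cd79a, which encodes a part of the B cell receptor, stood at 44.1 ± 25.6 and 4.22 ± 4.95. It too passed the filter only through Stat3C and so had to differ. Mast cell and basophil markers (8 genes, 4 tested, none called) summed to 1689 in Stat3C replicate 2, against 36.8 to 48.5 in the other Stat3C libraries and 94.5 to 309 in Stim1KO Stat3C. Myeloid markers (9 genes, 3 tested, none called) summed to 280.0 in the same library and to 17.9 to 49.4 in the other 5. The highest genes of these 2 lists were Mcpt8 (276 ± 446 and 87.9 ± 78.1) with Cpa3 (142 ± 224 and 32.0 ± 13.4), and Mpo (31.4 ± 48.7 and 15.1 ± 7.52) with Itgam (31.7 ± 35.6 and 8.13 ± 4.59). The mast cell genes Mcpt4, Tpsb2 and Tpsab1 were listed at 0 throughout. The part of any of these cell types, CD8 T and NK cells included, in the granule gene values was not tested. Without Stat3C replicate 2 the log2 fold changes of Gzmb, Prf1, Nkg7 and Ctsw were 2.05, 2.68, 2.29 and 1.47, all as large as or larger than with it. Replicate 2 was the highest Stat3C library for Gzmb, Prf1 and Nkg7, so leaving it out had to raise their log2 fold changes. These values therefore cannot tell the part of other cell types.

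**Figure D3:**
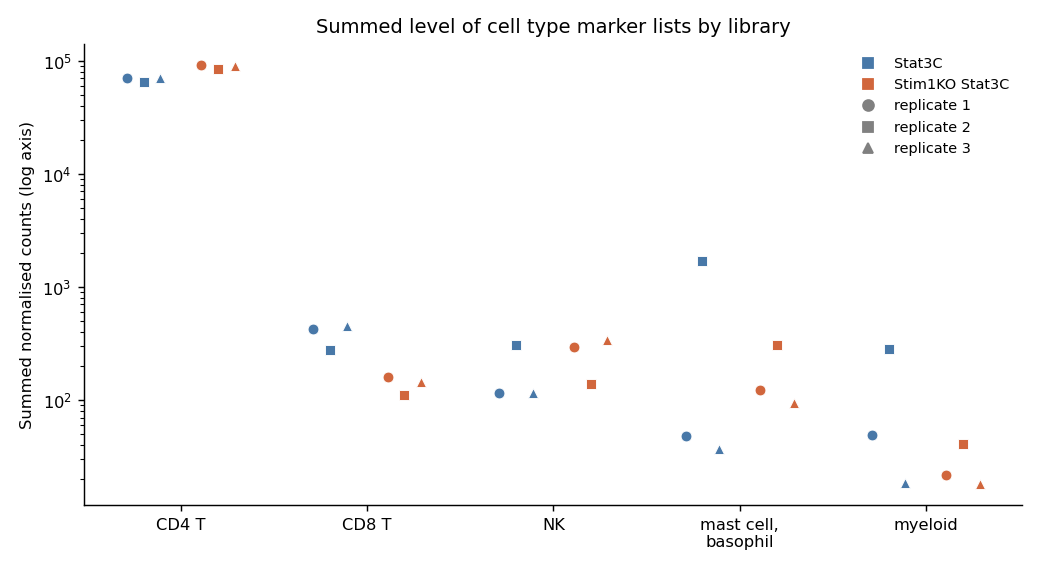
Summed normalised counts (vertical axis, log scale) of 5 cell type marker lists in each library, blue for Stat3C and orange for Stim1KO Stat3C, with circle, square and triangle for replicates 1, 2 and 3. CD8 T cell sums are lower in all 3 Stim1KO Stat3C libraries, NK sums overlap, and Stat3C replicate 2 has the highest mast cell and myeloid sums.

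Some genes rose in a list of cathepsins, cystatins and other genes linked to processing of granule enzymes. Of 11 tested genes of this list 4 rose and none fell, with a median log2 fold change of 0.17, where 8.62% of all genes tested rose. Ctsb, which encodes the lysosomal protease cathepsin B, rose from 4511 ± 60.7 to 7225 ± 515 (log2 0.68, SE 0.06, limma adjusted p = 0.0013). Ctsd and Ctss, which encode cathepsins D and S, rose by 0.58 and 0.40 on the log2 scale. Cst7 encodes cystatin F, an inhibitor of the cathepsins that mature granzymes, and rose from 2139 ± 211 to 2971 ± 160 (log2 0.48). Ctsc encodes the dipeptidyl peptidase that activates granzymes by trimming them, and stood at 1922 ± 251 and 1872 ± 177 (log2 -0.03, adjusted p = 0.856). It is named outside the rule for named genes and was chosen after its value was seen.

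Of 31 tested genes of granule transport and fusion, 5 rose and none fell, with a median of 0.14. Of all genes tested 8.62% rose, and 13.6% were called in either direction. Sytl2, which encodes a Rab27 effector that tethers granules to the plasma membrane, stood at 47.6, 69.5 and 39.7 in the Stat3C libraries, and with Stim1 deleted its values were 631, 394 and 453 (log2 3.22, SE 0.25, limma adjusted p = 0.000564). All 3 libraries with Stim1 deleted were above all 3 others. Lyst, which controls the size of lysosomes and lytic granules, rose from 488 ± 80.1 to 974 ± 36.5 (log2 1.01, adjusted p = 0.00265). The actin regulator gene Coro1a, the small GTPase gene Rab27a and Lamp1, whose protein CD107a marks released granules, rose by 0.27, 0.32 and 0.22 on the log2 scale. Lamp1 falls outside the rule for named genes and completes the count of 5. The other 26 genes, among them the fusion proteins Stx11 and Stxbp2, did not pass the test. Stx11 stood at 1740 ± 194 and 2322 ± 403 (adjusted p = 0.0691) and Stxbp2 at 2001 ± 252 and 2181 ± 21.0 (adjusted p = 0.338), both picked with their values in view.

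Of 6 tested death ligands and effector cytokines, 4 rose and none fell, with a median of 1.38, where 8.62% of all genes tested rose. Fasl, which encodes the ligand of the death receptor Fas, rose from 11.7 ± 3.53 to 48.5 ± 22.1 (log2 1.87, SE 0.47, limma adjusted p = 0.0357). Lta, which encodes lymphotoxin alpha, rose from 636 ± 135 to 2379 ± 524 (log2 1.90, adjusted p = 0.00165), and Ltb rose by 0.80 on the log2 scale. Ifng was the fourth (log2 3.36, adjusted p = 0.00764). Of the remaining genes, Tnfsf10, which encodes TRAIL, and Tnf missed the threshold (adjusted p = 0.0503 and 0.0604). Their groups did not overlap, with Stim1KO Stat3C higher, as in 19.2% of all genes tested.

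Transcription factors of effector T cells changed both ways. Of 18 tested, 8 rose and 4 fell, with a median of 0.23, where 8.62% of all genes tested rose and 4.96% fell. Ikzf3 (1118 ± 62.7 to 2234 ± 182, limma adjusted p = 0.000564), Prdm1 (log2 2.21, adjusted p = 0.00165) and Hlx (log2 2.33, adjusted p = 0.00165) rose. Eomes and Tbx21, whose proteins are the T-box factors known for driving granzyme and perforin genes in killer cells, rose from 17.8 ± 4.16 to 175 ± 83.4 and from 941 ± 82.6 to 1446 ± 217 (log2 3.15 and 0.61, adjusted p = 0.00213 and 0.0145). Runx3, a RUNX factor with a like role in CD8 T cells, stood at 2930.1 ± 250 and 2787 ± 286 (log2 -0.07, adjusted p = 0.615). Stat4 (log2 -0.69, adjusted p = 0.00158), Stat5a, Stat5b and Bhlhe40 fell, the last 3 by 0.28, 0.24 and 0.48 on the log2 scale. Eomes, Tbx21, Runx3, Stat5a, Stat5b and Bhlhe40 fall outside the rule for named genes, and their values were known when they were picked.

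**Figure D4:**
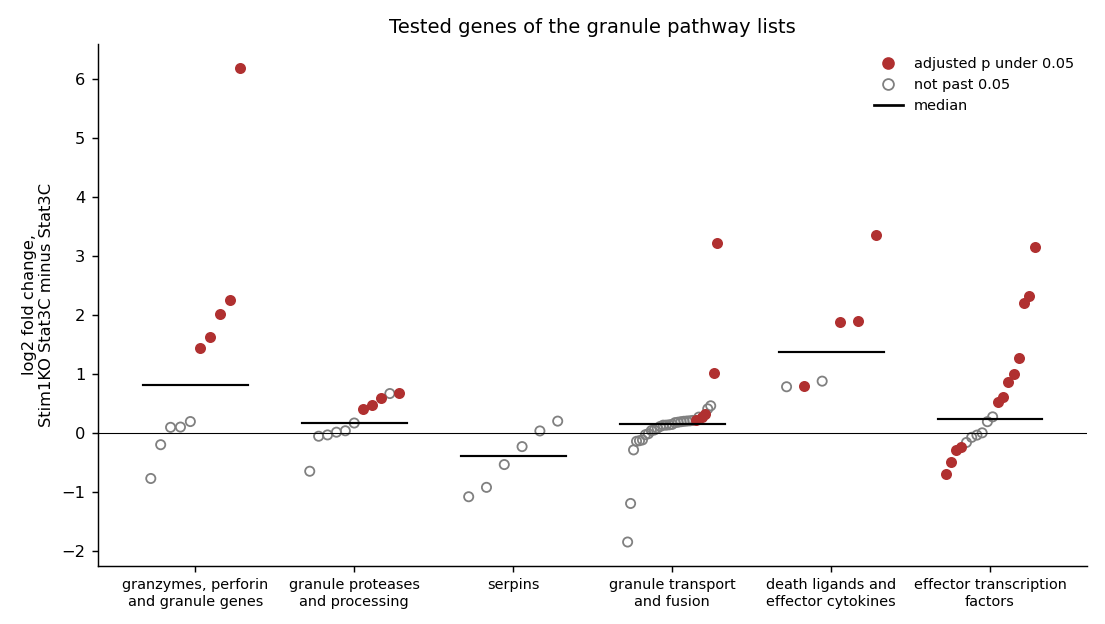
Log2 fold change (vertical axis, Stim1KO Stat3C minus Stat3C) of every tested gene of 6 lists, filled red where the adjusted p was under 0.05, with a line at each list's median. Medians are 0.82 for the granule genes, 0.17 for proteases and processing, -0.38 for serpins, 0.14 for transport and fusion, 1.38 for death ligands and effector cytokines and 0.23 for transcription factors.

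Genes with a profile like that of Gzmb were sought by the root mean square difference of log2 profiles over the 6 libraries, each centred on its own mean. This is a description, as the 6 libraries include the group difference. The 5 nearest genes outside the 10 were Ctla2b (0.229), Gpr83 (0.240), Ceacam16 (0.246), Kctd12 (0.257) and Ctla2a (0.260), against a median of 0.969 over all genes tested. Ctla2a stood at 308, 922 and 296 in Stat3C and at 1538, 1668 and 2215 in Stim1KO Stat3C, with replicate 2 high in the first group and replicate 3 in the second, as for Gzmb. For Prf1 the 5 nearest were Ccl4 (0.318), 4930486L24Rik (0.356), Fasl (0.413), Il10 (0.455) and Ctla2a (0.456), against a median of 1.33. Among the 10 genes themselves Nkg7 was nearest to both, at 0.343 from Gzmb and 0.287 from Prf1. Gzmk was farthest from both, at 2.30 and 1.98.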

How the data were processed

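Poly(A) RNA of 6 samples, 3 per genotype, was sequenced after a stranded library preparation that took 100 ng of RNA, per the labels' protocols. Build mm10 and the tools DESeq2 1.22.2, HTSeq 0.11.1 and TopHat2 2.1.1 appear, with no role, in the submitters' processing notes. For gene models and counting settings: not given in the sources used here. Each deposited value is a normalised signal, a gene's read count divided by its library's size factor. This reading comes from the values: 100% of those above 0 are whole multiples, within 0.01, of 1 step per library (0.433 to 1.37), and dividing by the step gives back whole reads. In Stim1KO Stat3C replicate 3 the step, 0.995, is too near 1 to be told from rounding. Of 23420 rows, 27 whose names had become dates (at most 0.217% of reads) were left out.

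The main test was limma 3.58.1 with a variance trend (R 4.3.3) on log2(value + 1), two-sided, over all genes with a mean of at least 10, adjusted by Benjamini-Hochberg. On recovered reads edgeR 4.0.16 called 1507 genes and DESeq2 1.42.0 called 2250. The steps were tested on simulated data, in which 12 of 154 calls were false. Of 50 genes changed at each size, 34%, 68%, 90% and 92% were recovered at log2 0.5, 1, 2 and 3. Further alternatives were other pseudocounts, low-value filters and scalings, limma without the trend, library weights, voom, an Xist covariate and leaving out each library. Positions and exon lengths came from GENCODE mouse release M21 (GRCm38), promoter windows from RefSeq (GRCm38.p6). Replicates were numbered in accession order. The members and lists were chosen with earlier results of these data known. Genes named are the 10 members, Stim1, up to 4 called genes per list by smallest adjusted p (up to 2 by highest mean where none was called) and the 5 nearest profiles for Gzmb and Prf1, with exceptions given in the text. No 2 libraries held the same values. Some results of the Th17 and B cell marker lists are not reported here.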

Additional observations from a re-analysis of the deposited data

How the results depend on the processing

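The number of granule genes called was 5 in the main fit. Without a variance trend limma called 2 of them, and the count was 2 to 7 with 1 library left out, 3 without Stat3C replicate 1 or 3 or Stim1KO Stat3C replicate 3 and 2 without Stim1KO Stat3C replicate 1. Over all genes, 1623 were called, 827 without a variance trend, 3959 with library quality weights and 618 to 2939 with 1 library left out. Gzmk and Ctsw were called in all 18 alternatives, Nkg7 in 16, Prf1 in 13 and Gzmb in 12. Gzmc was called in 2 and Unc13d in 2, and Srgn and Serpinb9 in none. Gzma was called in 1 and changed sign in 5, to -0.37 with edgeR and -0.37 with DESeq2 on recovered reads, with -0.41 to 0.93 over the single libraries left out. The other 9 genes kept their direction throughout. The cause of these changes was not tested. The fits with a library left out differ from the main fit both in the number of libraries and in which are present. No paired analysis was possible because the labels give the groups no shared replicate numbers. Low read counts limit the minor granzymes and the size of the Gzmk difference. Only 3 Gzmk reads were counted in Stat3C, although its libraries were together the deeper ones.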

Other observations

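Of 11 serpin genes other than Serpinb9, 6 were tested and none was called, with a median log2 fold change of -0.38, and 5 were listed at 0 in all libraries. Serpina3g stood at 213, 6537 and 184 normalised counts in Stat3C and at 325, 306 and 272 in Stim1KO Stat3C. Serpina3f stood at 26.8, 410.0 and 39.7 and at 69.8, 77.3 and 126, and Serpinb1a at 90.5, 428 and 77.5 and at 69.8, 109.5 and 56.7. In all 3 genes Stat3C replicate 2 was the highest library. It was also the highest for Serpinb6b, which by its mean over all libraries is among the 2 highest of the list with Serpina3g and stood at 2198 ± 323 and 1860 ± 97.7 (limma adjusted p = 0.165).

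The same library was also the highest of all 6 for several granule transport genes, among them Rab27b, Cd63 and Snap23. Rab27b stood at 71.0 normalised counts there and at 0 to 3.03 in the other 5 libraries, and Cd63, a tetraspanin of granule membranes, at 566 against 15.9 to 51.5. Snap23, which encodes a membrane fusion protein, stood at 832 there and at 418 to 499.9 in the others. Neither Rab27b nor Cd63 passed the test (adjusted p = 0.464 and 0.526). Mast cell and basophil markers were highest in the same library, and their part in these values was not tested. Serpina3f, Serpinb1a, Rab27b, Cd63 and Snap23 were chosen with their values in view.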
